A study of Mus musculus with 48 samples.

Results

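Complement components and receptors were followed through the cortex and hippocampus of APP/PS1 and wildtype (WT) mice given H2O or MSX-3, an antagonist of the adenosine A2AR. The 8 genes are C1qa, C1qb and C1qc, which code for the chains of C1q, C4b and C3, the receptors C3ar1 and C5ar1, and Serping1. They were chosen by name, through the transcript that each array probe is annotated to. All 8 had a probe, among 22907 named genes on the array, and they had 10 probes in total because C3 and C4b each had a pair. All 10 probes passed the filter on dim probes in both tissues. The C5ar1 probe passed only through APP/PS1 groups, in which it was brighter.

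RNA of 24 male mice was measured on 48 one-colour Agilent arrays, with cortex and hippocampus taken from each mouse. There were 6 WT and 6 APP/PS1 mice on H2O, and as many of each genotype on MSX-3. APP/PS1 mice carry transgenes for a mutant human amyloid precursor protein and a mutant presenilin 1, which lead to amyloid plaques, and were heterozygous on the C57Bl6/J background, while WT mice were their littermates. MSX-3, a prodrug that is turned into the antagonist MSX-2, was dissolved in the drinking water at 0.3 g/L. It was given from 3 months of age by the labels of the samples, or from 4 months by the text on the series, up to 9-10 months. Each array is 1 tissue of 1 mouse, and all mice of a genotype come from a single transgenic line.

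C1q is the recognition molecule of the classical pathway. Once bound, it activates the proteases C1r and C1s, and C1s cuts C4 and C2, which forms the enzyme that cuts C3. Fragments of C3 and C4 coat the target for phagocytes, and the small fragments C3a and C5a act on C3ar1 and C5ar1, while Serping1, the C1 inhibitor, blocks C1r and C1s. In the brain C1q is made mainly by microglia, and C1q and C3 are known for marking synapses that microglia remove.

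C1qa, C1qc and C1qb lie next to each other on chromosome 4 with no annotated gene between them, C3ar1 is on chromosome 6, C5ar1 on 7, C3 and C4b on 17, and Serping1 on 2. The bases before the annotated start are shown for C1qb and C1qc, which are neighbours and both rose in the cortex of APP/PS1 mice, and for C3ar1, a receptor of the set that also rose there (RefSeq, GRCm38.p6, minus strand, written 5' to 3'). Those of C1qb and C3ar1 end at the base before the start, and that of C1qc ends 22 bases earlier, because these 22 bases lie inside an annotated gene. Capitals mark the searched motifs that were found.

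C1qb (chr4:136886201-136886450): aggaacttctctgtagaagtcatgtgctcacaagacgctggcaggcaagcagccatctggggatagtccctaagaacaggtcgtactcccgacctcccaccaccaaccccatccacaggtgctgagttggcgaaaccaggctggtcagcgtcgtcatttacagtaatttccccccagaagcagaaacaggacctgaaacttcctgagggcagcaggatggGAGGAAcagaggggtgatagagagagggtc
C1qc (chr4:136892937-136893164): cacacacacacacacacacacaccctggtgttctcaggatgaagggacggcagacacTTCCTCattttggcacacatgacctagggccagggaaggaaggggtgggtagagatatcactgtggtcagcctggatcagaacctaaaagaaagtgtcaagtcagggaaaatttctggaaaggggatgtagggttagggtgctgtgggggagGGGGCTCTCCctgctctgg
C3ar1 (chr6:122856158-122856407): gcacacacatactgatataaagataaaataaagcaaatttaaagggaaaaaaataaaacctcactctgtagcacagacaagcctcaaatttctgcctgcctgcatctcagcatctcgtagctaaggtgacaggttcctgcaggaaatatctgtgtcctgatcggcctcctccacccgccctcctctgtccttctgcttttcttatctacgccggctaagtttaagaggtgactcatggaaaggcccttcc

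Motifs of 4 transcription factor families with a known role in immune cells were searched on both strands, the PU.1 core GAGGAA, the ISRE core GAAANNGAA, the STAT element TTCNNNGAA and the NF-kB consensus. The PU.1 core was found once before C1qb, 25 to 30 bases from the start, and once before C1qc as TTCCTC, 188 to 193 bases from the start. A match to the NF-kB consensus lay 32 to 41 bases before C1qc. None of the matches overlapped another, and none of the 4 motifs was found before C3ar1. The 250 bases before C3, which are not printed, were also searched and held none of them. No promoter was at hand for C1qa, C4b and Serping1. For C5ar1, 202 of the 250 bases lay inside an annotated gene, so that it was not searched. Of all 32851 promoters of the same table, 23.3% held the PU.1 core in their 250 bases, and 21.2% did so in the window of 228 bases printed for C1qc. The NF-kB consensus was found in 6.59% of windows of 228 bases. These matches describe the letters and not binding.

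Values are given as levels, the log2 intensity of a probe minus the 75th percentile of its array, so that a level of 0 lies at the 75th percentile and a difference of 1 is a 2-fold difference. Levels of different probes were not compared. Groups were compared with limma over all kept probes of a tissue, and a probe was called higher or lower when its adjusted p was under 0.05 and it differed 1.5-fold or more. Overlap of the arrays is given for single genes, and the share of all probes without overlap was not counted. The percentages of all probes given below are shares of called probes. The spot grid could not be placed on 2 arrays, both of cortex and 1 from each WT group, which were left out, so that both WT groups of the cortex hold 5 arrays. The promoter of Prnp drives the transgenes of this line, and on H2O the level of Prnp was higher in APP/PS1 mice by 2.03 (cortex) and 1.72 (hippocampus), without overlap, as a check of the labels. Of 10 microglia markers 10 were kept in both tissues, and of the 7 neuronal markers 7.

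In the cortex of mice on H2O, C1qa, C1qb, C1qc, C4b and C3ar1 were called higher in APP/PS1 than in WT mice. For each of them every APP/PS1 array lay above every WT array. C4b rose most, 9.62-fold, and the C1q chains rose 2.35-fold to 2.75-fold. These were 5 of the 8 members, and 1.49% of all probes tested in this comparison were called. The median log2 change was 1.32 over the 8 members and -0.03 over all probes.

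The level of C1qa, the A chain of C1q, was 0.57, 0.72, 0.75, 0.97 and 1.11 on the 5 WT H2O arrays of the cortex and ran from 1.95 through a median of 2.19 to 2.61 on the 6 APP/PS1 H2O arrays. The groups did not overlap, and the log2 change was 1.40 (SE 0.14, adjusted p = 0.000119). The level of C1qb, the B chain, was 0.33, 0.40, 0.43, 0.66 and 0.68 in WT mice and 1.41 to 2.17 in APP/PS1 mice with a median of 1.66, which gave a log2 change of 1.24 (SE 0.14, adjusted p = 0.000398). Neither chain showed overlap between genotypes. The level of C1qc, the C chain, was 1.48, 1.55, 1.62, 1.64 and 1.72 in WT mice and 2.73, 3.09 and 3.24 as the lowest, median and highest of APP/PS1 mice. It had the smallest spread of the chains in WT mice (SD 0.09, n = 5) and a log2 change of 1.46 (SE 0.10, adjusted p = 6.65e-06).

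C4b codes for the C4 of the mouse, which C1s cuts. Its brighter probe had levels of 0.25, 0.28, 0.33, 0.42 and 0.56 on the WT H2O arrays of the cortex and of 3.32, 3.55 and 4.03 as the lowest, median and highest on the APP/PS1 H2O arrays. The gap between the groups was many times the spread within either, and the log2 change of 3.27 (SE 0.14, adjusted p = 2.07e-07) was the seventh of 37680 probes by p. The second probe of C4b rose by 2.98 (adjusted p = 8.05e-07). C4a, a near copy of C4b that RefSeq lists as a transcribed pseudogene on the same chromosome with 4 annotated genes between, was higher by 2.79 (adjusted p = 2.88e-05), and whether the probes of C4a and C4b pick up each other's transcripts was not tested.

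**Figure D1:**
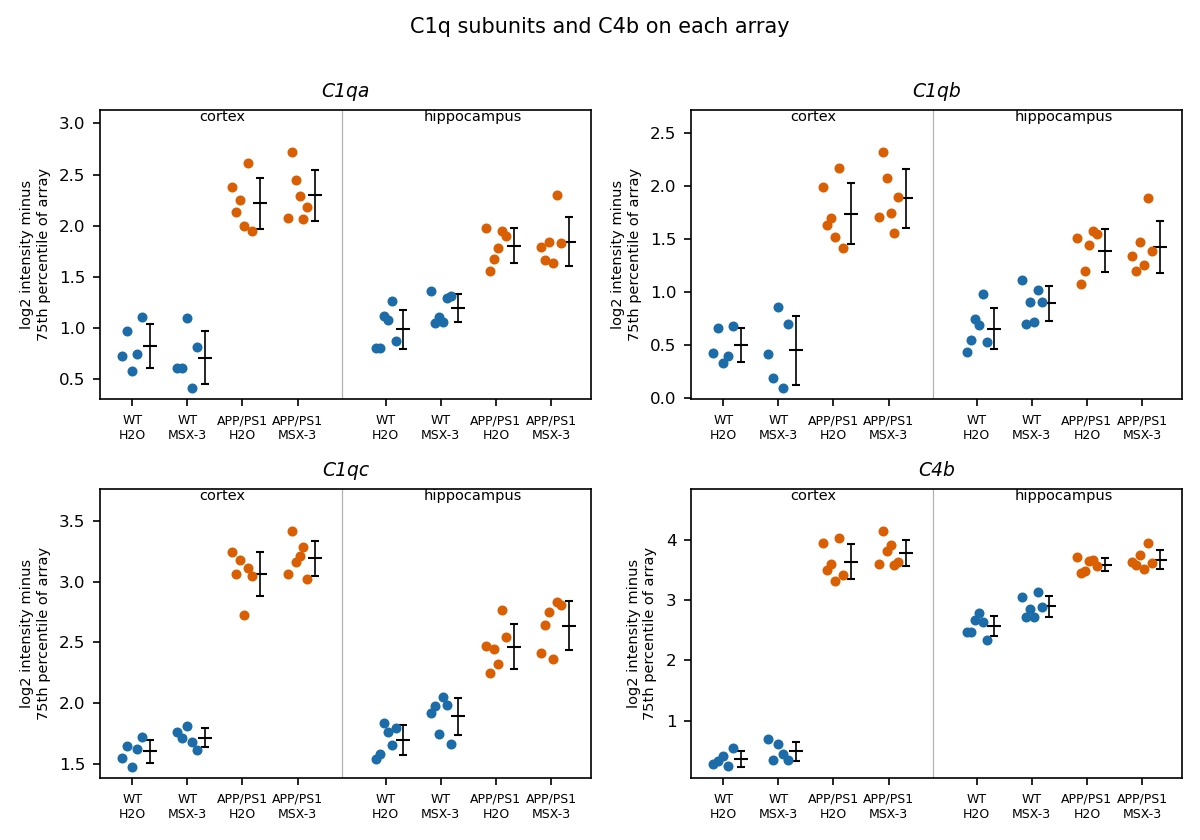
Levels (log2 intensity minus the 75th percentile of the array, y axis) of C1qa, C1qb, C1qc and C4b on each readable array, by tissue, genotype and agent (x axis), with WT in blue and APP/PS1 in orange and bars for mean and SD. For C4b, WT mice lie at 0.25 to 0.70 in the cortex but at 2.34 to 3.14 in the hippocampus, while APP/PS1 mice lie at 3.32 to 4.14 and 3.45 to 3.94.

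C3ar1, the receptor for C3a, had levels of -5.21, -5.02, -4.91, -4.65 and -4.56 on the WT H2O arrays of the cortex and of -4.16, -3.84 and -3.42 as the lowest, median and highest on the APP/PS1 H2O arrays. The groups did not overlap although the probe was dim, and the change of 1.06 (SE 0.17, adjusted p = 0.00655) was a 2.08-fold rise. C5ar1, the receptor for C5a, had levels of -7.02, -6.65, -6.37, -5.34 and -4.60 in WT mice, where 2 of 5 arrays were well above background, and of -4.87 to -4.05 in APP/PS1 mice with a median of -4.59. The brightest WT array lay among the APP/PS1 arrays, and the change of 1.46 (SE 0.38) did not pass the test (adjusted p = 0.1). C5ar1 was called in 1 of the 11 fits without 1 array, the fit without that brightest WT array, of mouse 308 (1.81, adjusted p = 0.0082). Since the probe entered the test only through its signal in APP/PS1 groups, this call is not independent of the filter.

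C3, the component on which the pathways converge, gave different answers with its probes. On the brighter probe the levels were -1.71, -1.60, -1.56, -1.27 and -1.25 in WT and -1.69, -1.05 and -0.25 (lowest, median, highest) in APP/PS1 mice of the cortex, with overlap and a difference of 0.47 (SE 0.21, adjusted p = 0.426). On the dimmer probe they were -4.46, -4.25, -4.11, -4.11 and -4.06 in WT and -3.73, -3.32 and -2.74 in APP/PS1 mice, without overlap, and this probe was called, with a change of 0.95 (SE 0.17, adjusted p = 0.0142). Over the 46 readable arrays, after the mean of each of the 8 groups was subtracted, both probes of C3 correlated with r = 0.46 and both probes of C4b with r = 0.65. Serping1 had levels of -2.29 to -1.91 in WT and -2.07 to -1.57 in APP/PS1 mice, which overlapped, with a difference of 0.21 (95% interval -0.04 to 0.46, adjusted p = 0.515).

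**Figure D2:**
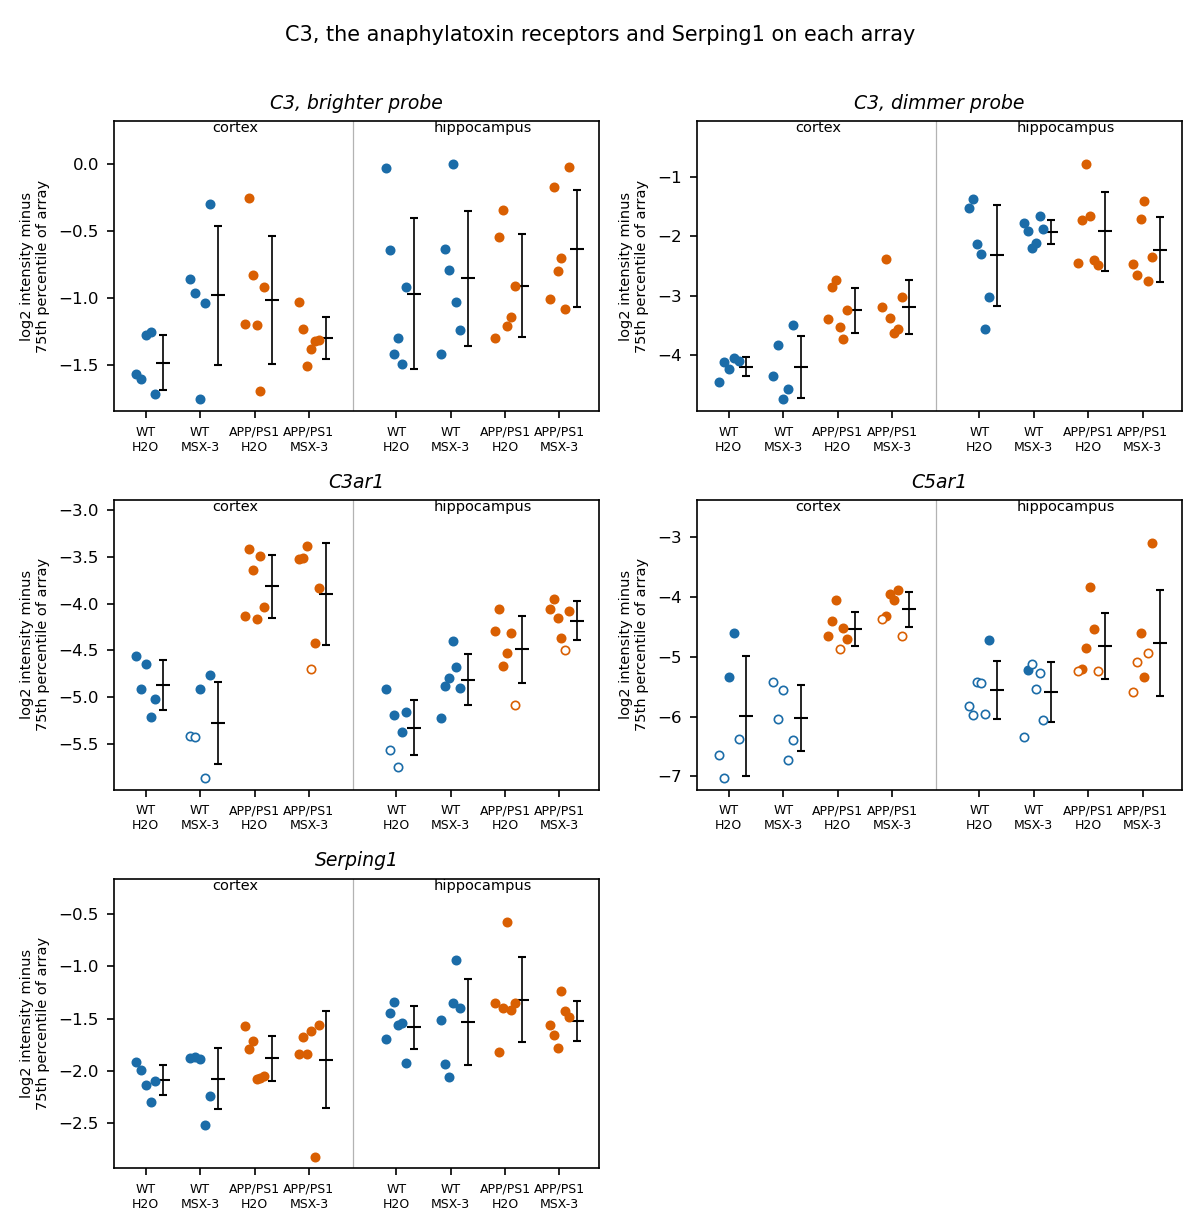
Levels (log2 intensity minus the 75th percentile of the array, y axis) of both C3 probes, C3ar1, C5ar1 and Serping1 on each readable array, by tissue, genotype and agent (x axis), with mean and SD, and with open circles for arrays not well above background. C5ar1 is well above background on 2 of 10 WT arrays of the cortex, and the dimmer C3 probe lies higher in the hippocampus than in the cortex.

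Scan day and genotype were partly confounded. In the cortex on H2O, 5 APP/PS1 and 2 WT arrays were scanned on day 1, and 1 APP/PS1 and 3 WT arrays on day 2. On day 1 the difference was 1.57 for C1qa, 1.39 for C1qb, 1.51 for C1qc, 3.33 for C4b and 1.03 for C3ar1, and on day 2 it was 1.21, 1.04, 1.43, 3.11 and 1.42 in this order, so that each held its direction within a day. For C3 (brighter probe) it was 0.10 on day 1 and 1.37 on day 2. With the scan day as a term of the fit, the same 5 members were called. The only slide with both groups held 2 APP/PS1 and 1 WT array, with differences of 1.52 for C1qa, 1.22 for C1qb, 1.64 for C1qc, 3.09 for C4b and 0.80 for C3ar1. With the slide as a term, C1qa, C1qc and C4b were called, and C1qb (adjusted p = 0.0586) and C3ar1 (adjusted p = 0.119) were not.

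In the hippocampus of mice on H2O, the C1q chains and C4b were again called higher in APP/PS1 mice, by smaller amounts and without overlap. These were 4 of the 8 members, where 0.393% of all probes were called. The median log2 change was 0.75 over the members and -0.03 over all probes.

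The level of C1qa in the hippocampus ran from 0.80 through 0.97 to 1.26 (lowest, median, highest of 6) in WT and from 1.55 through 1.84 to 1.98 in APP/PS1 mice, a log2 change of 0.82 (SE 0.11, adjusted p = 0.0028). C1qb had levels of 0.43, 0.62 and 0.97 in WT and of 1.07, 1.47 and 1.57 in APP/PS1 mice, a change of 0.74 (SE 0.11, adjusted p = 0.0106). C1qc had levels of 1.54, 1.71 and 1.84 in WT and of 2.25, 2.46 and 2.76 in APP/PS1 mice, a change of 0.77 (SE 0.09, adjusted p = 0.00186). The chains of C1q therefore changed by 1.67-fold to 1.76-fold here.

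For C4b the lowest, median and highest levels in the hippocampus were 2.34, 2.55 and 2.79 in WT and 3.45, 3.60 and 3.72 in APP/PS1 mice, and the change was 1.02 (SE 0.09, adjusted p = 0.00013), or 2.03-fold. Its second probe rose by 0.88 (adjusted p = 0.000592). C3ar1 had levels of -5.74 to -4.92 in WT and of -5.09 to -4.06 in APP/PS1 mice, with overlap, and its difference of 0.83 (SE 0.18) did not pass (adjusted p = 0.0783). Without mouse 325 of the APP/PS1 H2O group it was 0.95 and passed (adjusted p = 0.0218). C5ar1 differed by 0.74 (95% interval 0.14 to 1.33, adjusted p = 0.387), with 1 of 6 WT and 4 of 6 APP/PS1 arrays well above background. C3 differed by 0.06 on the brighter and by 0.40 on the dimmer probe, and Serping1 by 0.27, with overlap and adjusted p of 0.958, 0.773 and 0.629.

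All 6 APP/PS1 H2O arrays of the hippocampus and 2 of the 6 WT H2O arrays were scanned on day 1. Within that day the difference was 0.97 for C1qa, 0.85 for C1qb, 0.78 for C1qc and 1.18 for C4b, without overlap, and with the day as a term of the fit C1qa and C4b were called while C1qb (adjusted p = 0.107) and C1qc (adjusted p = 0.0733) were not. On the 2 slides that held 1 array of each group, C1qa differed by 0.80 and 0.75, C1qb by 0.66 and 0.53, C1qc by 0.65 and 0.66, and C4b by 1.14 and 0.98. With the slide as a term none of the members was called, with differences of 0.77, 0.59, 0.66 and 1.06 in this order and adjusted p from 0.149 to 0.522. With all 4 groups of the tissue and the slide in the fit, the differences of the same genes were 0.82, 0.66, 0.77 and 0.99, and 4 members were called.

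The choroid plexus, which lies beside the hippocampus, showed on 6 of the 24 hippocampus arrays, where the level of its marker Ttr was 7.04 to 7.59, against -2.07 to 2.78 on the other 18. These were 3 WT H2O arrays and 1 of each other group. The summed intensity of 6 choroid plexus markers, relative to the 75th percentile of the array, ran from 1.33 to 209.6 in WT H2O, from 1.52 to 207.8 in APP/PS1 H2O, from 2.52 to 152.1 in WT MSX-3 and from 2.10 to 168.5 in APP/PS1 MSX-3 mice. The dimmer C3 probe had levels of -2.13, -1.46 and -0.79 (lowest, median, highest) on these 6 arrays and of -3.56, -2.32 and -1.66 on the other 18. Without the 6 arrays, which left 3 WT and 5 APP/PS1 arrays on H2O, the difference was 0.76 for C1qa, 0.70 for C1qb, 0.73 for C1qc and 1.02 for C4b, and only C4b was called (adjusted p = 0.0319), while its second probe (0.85, adjusted p = 0.11) was not. The dimmer C3 probe then differed by 0.82 on H2O (adjusted p = 0.616) and by -0.42 on MSX-3 (adjusted p = 1).

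**Figure D3:**
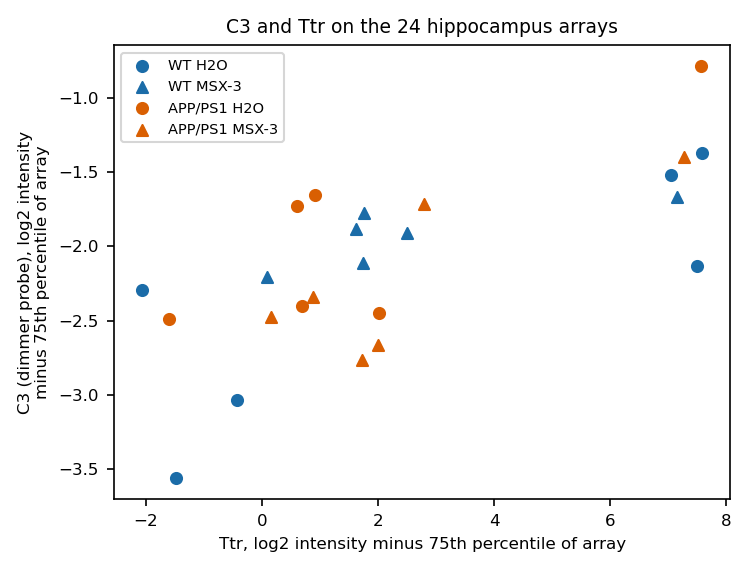
Level of the dimmer C3 probe (y axis) against the level of the choroid plexus marker Ttr (x axis), both as log2 intensity minus the 75th percentile of the array, on the 24 hippocampus arrays, coloured by genotype with circles for H2O and triangles for MSX-3. The 6 arrays with Ttr above 7 have a median C3 level of -1.46, and the other 18 one of -2.32.

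In the cortex of mice on MSX-3, C1qa, C1qb, C1qc, C4b, C3ar1 and C5ar1 were called higher in APP/PS1 than in WT mice. These were 6 of the 8 members, where 1.42% of all probes were called, and the 6 showed no overlap. C5ar1 entered the test only through its signal in APP/PS1 groups, so that its call is not independent of the filter. The WT MSX-3 levels of C1qa were 0.42, 0.61, 0.61, 0.81 and 1.10, and those of APP/PS1 MSX-3 mice 2.07, 2.24 and 2.72 (lowest, median, highest), with a change of 1.59 (SE 0.15, adjusted p = 8.15e-05). C1qb rose by 1.43 (adjusted p = 0.000588) and C1qc by 1.48 (adjusted p = 2.17e-06). C4b had levels of 0.35, 0.35, 0.45, 0.62 and 0.70 in WT and of 3.57, 3.72 and 4.14 in APP/PS1 mice, and its change of 3.29 (SE 0.12, adjusted p = 9.62e-08), or 9.75-fold, was the third of all probes by p.

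The receptors were at the edge of detection in WT mice on MSX-3. C3ar1 was well above background on 2 of 5 WT arrays and 5 of 6 APP/PS1 arrays of the cortex, and its change was 1.38 (SE 0.27, adjusted p = 0.0248). It was called in 4 of the 11 fits without 1 array, and lost with any of APP/PS1 mice 266, 267, 281 and 319 or WT mice 303, 49 and 77 left out (adjusted p up to 0.0767). C5ar1 was not well above background on any WT MSX-3 array, with levels of -6.73, -6.40, -6.04, -5.55 and -5.42. It lay at -4.66, -4.19 and -3.89 (lowest, median, highest) in APP/PS1 MSX-3 mice, of which 4 of 6 arrays were well above background. The difference between the group means (-4.21 against -6.03) passed the test (adjusted p = 0.00115). With a floor for the WT arrays the rise was 2.39-fold, and this smaller rise was not tested. The floor is for each WT array the higher of its lowest signal well above background and the probe's own signal. The APP/PS1 signals were taken as measured. The brighter C3 probe differed by -0.32 (adjusted p = 0.572), the dimmer by 1.0 (SE 0.27, adjusted p = 0.121) and Serping1 by 0.18 (adjusted p = 0.774). All 6 APP/PS1 MSX-3 arrays and 3 of 5 WT MSX-3 arrays were scanned on day 1, where C1qa differed by 1.75, C1qb by 1.65, C1qc by 1.48, C4b by 3.28, C3ar1 by 1.67 and C5ar1 by 1.85. No slide held both groups. With all 4 groups of the cortex and the slide in the fit, C3ar1 (1.29, adjusted p = 0.139) and C5ar1 (0.86, adjusted p = 0.811) were not called.

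In the hippocampus of mice on MSX-3, C1qa, C1qc and C4b were called, 3 of the 8 members, where 0.312% of all probes were. C4b had levels of 2.71, 2.87 and 3.14 (lowest, median, highest) in WT and of 3.51, 3.63 and 3.94 in APP/PS1 mice, a change of 0.78 (SE 0.10, adjusted p = 0.00276). C1qc rose by 0.75 (SE 0.11, adjusted p = 0.00725) and C1qa by 0.65 (SE 0.12, adjusted p = 0.0322). All 3 were without overlap, while the second probe of C4b (0.73, adjusted p = 0.0446) was called with overlap. C1qb did not overlap either, with levels of 0.70 to 1.11 in WT and 1.20 to 1.88 in APP/PS1 mice, and its difference of 0.53 (SE 0.12) did not pass the test (adjusted p = 0.155). C1qa was called in 3 of the 12 fits without 1 array, and lost with any of APP/PS1 mice 266, 281, 293 and 319 or WT mice 282, 298, 303, 304 and 77 left out (adjusted p up to 0.0977). C3ar1 differed by 0.63 (adjusted p = 0.108) and passed without WT mouse 298 (0.71, adjusted p = 0.0392).

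With 4 arrays of each genotype on day 1 and 2 of each on day 2, the hippocampus on MSX-3 was balanced for scan day. C1qa differed by 0.69 and 0.56, C1qb by 0.55 and 0.48, C1qc by 0.68 and 0.87 and C4b by 0.77 and 0.80 on day 1 and day 2, each without overlap. With the day as a term the same 3 members were called. On the 3 slides that held both groups, C1qa differed by 0.63, 0.76 and 0.69, C1qc by 0.82, 0.64 and 0.68 and C4b by 0.77, 0.65 and 0.88, and with the slide as a term none was called (C4b 0.77, adjusted p = 0.0726). Without the arrays rich in Ttr, C1qc (0.82) and C4b (0.86) were called and C1qa (0.71, adjusted p = 0.0741) and the second probe of C4b (0.72, adjusted p = 0.214) were not.

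**Figure D4:**
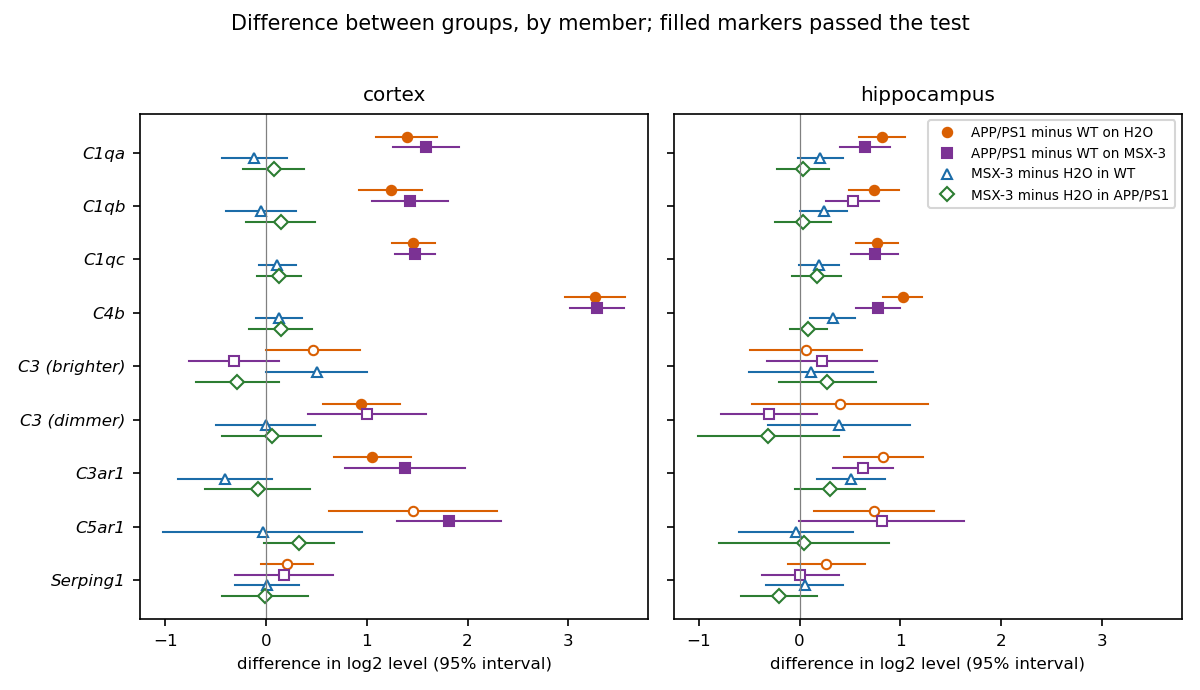
Difference in log2 level (x axis) with its 95% interval for each member (y axis), in cortex and hippocampus, for APP/PS1 minus WT on H2O and on MSX-3 and for MSX-3 minus H2O in WT and in APP/PS1 mice. Filled markers passed the test. C4b in the cortex stands at 3.27 and 3.29 for genotype, and none of the markers for MSX-3 is filled.

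MSX-3 was compared with H2O within each genotype and tissue. None of the members was called in any of the 4 comparisons or in the genotype by agent interaction of either tissue. Of all probes limma called 0% in these 6 tests. An unadjusted p under 0.05 was found for 1469 to 3255 probes, with the highest count in the WT cortex. By chance a share of 0.05 of the 37680 (cortex) or 38128 (hippocampus) probes tested would on average have such a p. For APP/PS1 cortex, the difference with MSX-3 was 0.08 for C1qa (95% interval -0.23 to 0.38), 0.14 for C1qb (-0.19 to 0.48), 0.13 for C1qc (-0.09 to 0.35) and 0.15 for C4b (-0.16 to 0.46). For the receptors and the inhibitor it was -0.08 for C3ar1 (-0.60 to 0.44), 0.33 for C5ar1 (-0.02 to 0.67) and -0.01 for Serping1 (-0.44 to 0.41), and for C3 it was -0.28 (-0.70 to 0.13) on the brighter and 0.06 (-0.43 to 0.55) on the dimmer probe. The levels overlapped for all members. In the hippocampus of APP/PS1 mice the differences ran from -0.31 for the dimmer C3 probe (-1.01 to 0.39) to 0.30 for C3ar1 (-0.04 to 0.65), with -0.21 for Serping1 (-0.58 to 0.17), 0.08 for C4b (-0.10 to 0.27) and 0.17 for C1qc (-0.07 to 0.41).

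In the cortex of WT mice C4b differed by 0.13 with MSX-3 (95% interval -0.10 to 0.36), C1qc by 0.11 (-0.07 to 0.30) and C3ar1 by -0.40 (-0.87 to 0.06). In their hippocampus C1qb differed by 0.24 (0.01 to 0.48, adjusted p = 0.987), C4b by 0.33 (0.11 to 0.56, unadjusted p = 0.00736 and adjusted p = 0.979) and C3ar1 by 0.51 (0.17 to 0.85, unadjusted p = 0.00674 and adjusted p = 0.979), with overlap of the arrays. The interaction was -0.78 (-1.42 to -0.15, adjusted p = 0.753) for the brighter C3 probe in the cortex and -0.70 (-1.69 to 0.29) for the dimmer C3 probe in the hippocampus, where it was -1.23 without the arrays rich in Ttr (adjusted p = 1). For C4b the interaction was 0.02 (-0.36 to 0.40) in the cortex and -0.25 (-0.51 to 0.02) in the hippocampus.

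The genotype difference of C4b was larger in the cortex than in the hippocampus, by 2.24 on H2O (SE 0.16, adjusted p = 9.4e-08) and by 2.51 on MSX-3 (SE 0.15, adjusted p = 4.64e-09), and in both it had the smallest p of the 36743 probes kept in both tissues. On H2O, C1qc was also called (0.69, SE 0.13, adjusted p = 0.0213), which made 2 of the 8 members where 0.256% of probes were called. C1qa (0.58, adjusted p = 0.409) and C1qb (0.50, adjusted p = 0.926) were not. C1qc lost its call without the cortex array of WT mouse 56 (adjusted p = 0.0546) and without the arrays rich in Ttr. On MSX-3, C1qa (0.94, adjusted p = 0.0331), C1qc (0.73, adjusted p = 0.0174) and C4b were called, 3 of 8, where 0.188% of probes were, and C1qb was not (0.90, adjusted p = 0.111). The call of C1qa held in 8 of 23 fits without 1 array (adjusted p up to 0.0814), and without the arrays rich in Ttr neither C1qa (0.88, adjusted p = 0.14) nor C1qc (0.66, adjusted p = 0.0721) was called. With the slide in the fit, C4b was the only member called on MSX-3 (2.44, adjusted p = 6.88e-06). By the same test on H2O, 2 of the 10 microglia markers were called, with a median of 0.50 over the list, and so was the astrocyte marker Gfap (2.0, adjusted p = 2.12e-05).

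The tissues were also compared within a genotype. Between the tissues of WT H2O mice, C4b was 4.58-fold lower in the cortex, a log2 change of -2.20 (SE 0.10, adjusted p = 4.11e-08) without overlap, and the only member called by its brighter probe, where 14.3% of all probes were called. In APP/PS1 H2O mice its difference between the tissues was 0.05 (95% interval -0.22 to 0.31, adjusted p = 0.822), where 13.7% of all probes were called. For C4b, the order of group means was headed by the 4 APP/PS1 groups (3.59 to 3.78), whose neighbours overlapped, followed without overlap by WT MSX-3 and WT H2O of the hippocampus (2.89 and 2.56) and, without overlap, by WT MSX-3 and WT H2O of the cortex (0.49 and 0.37).

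C1qc (0.60, adjusted p = 0.000772) and C3ar1 (0.67, adjusted p = 0.0154) were higher in the cortex than in the hippocampus of APP/PS1 H2O mice, 2 of 8 members, with overlap, and the fold change of C1qc, 1.51, lay just above the minimum. C1qc fell under it without the hippocampus array of mouse 255 (0.55) or 261 (0.57) or the cortex array of mouse 259 (0.57) or 81 (0.56), and C3ar1 without the hippocampus array of mouse 325 (0.56). In WT mice C1qa, C1qb and C1qc differed by -0.16, -0.15 and -0.09 between the tissues (adjusted p from 0.386 to 0.481). The dimmer C3 probe was lower in the cortex by 1.88 in WT (adjusted p = 0.00168) and by 1.33 in APP/PS1 mice (adjusted p = 0.00337), without overlap, while the brighter one differed by -0.51 and -0.11. Without the hippocampus arrays rich in Ttr, the dimmer probe differed by -1.23 in WT (adjusted p = 0.00884) and by -1.11 in APP/PS1 mice (adjusted p = 0.00271). Serping1 was lower in the cortex by 0.50 in WT mice (adjusted p = 0.00599) and by 0.56 in APP/PS1 mice (adjusted p = 0.0284), under the minimum fold change.

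In bulk tissue, more or fewer cells of a type and more or less RNA per cell cannot be told apart. Of the 10 microglia markers, 6 were called higher in APP/PS1 mice in the cortex on H2O, where 1.49% of all probes were called. Among them were Aif1 (1.07) and Cx3cr1 (0.89), and the median over the list was 0.88. None of the 10 was called in the hippocampus, where 0.393% of all probes were and the median over the list was 0.37. The summed marker intensity ran from 177.7 to 262.4 in WT H2O and from 219.9 to 264.7 in APP/PS1 H2O mice of the cortex, and from 198.4 to 260.4 and from 242.2 to 262.5 in the hippocampus. The mean log2 level of the microglia markers was higher in APP/PS1 H2O mice, by 0.75 for cortex and by 0.33 for hippocampus.

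Relative to that mean on the same array, C1qa was still higher by 0.64 and C1qc by 0.71 in the cortex of APP/PS1 H2O mice without overlap, C1qb by 0.48 with overlap, C4b by 2.52 without overlap, and C3ar1 by 0.30 and C5ar1 by 0.71 with overlap. The difference was -0.54 for Serping1, without overlap, and -0.28 for the brighter C3 probe, with overlap. Neither was itself lower in APP/PS1 mice, and these negative values reflect the rise of 0.75 in the marker mean. For Serping1 the mean level was -1.88 in APP/PS1 and -2.09 in WT mice. The dimmer C3 probe was not set against the markers. In the hippocampus C1qc (0.44) and C4b (0.70) did not overlap, and C1qa (0.49) and C1qb (0.41) did. Of 8 astrocyte markers, Gfap alone was called in the cortex (2.70, adjusted p = 1.25e-06) and none in the hippocampus on H2O. Relative to the mean of the astrocyte markers, C4b was higher by 2.82 (cortex) and 0.90 (hippocampus), without overlap. Among 6 markers of infiltrating myeloid cells, Ccr2 and Plac8 were too dim to be kept in either tissue, and Chil3 was too dim in the hippocampus. None of those kept in a tissue was called there for genotype on H2O.

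Other complement genes were taken from a list of 53 genes on the array, of which 35 passed the filter for cortex and 36 for hippocampus. Of the 35, 4 were higher in APP/PS1 mice in the cortex on H2O and none lower, and the median change was 0.06. Of all probes 1.49% were called in this comparison, 508 of the 561 called probes being higher. Itgax, a subunit of complement receptor 4, rose (5.75, SE 0.20, adjusted p = 6.76e-08) from levels of -6.65 to -5.74 to levels of -0.87 to 0.03. It was well above background on 1 of 5 WT arrays, so that the size of its rise rests on WT signals mostly at background. Like C5ar1, Itgax entered the tests only through its signal in APP/PS1 groups, so that its calls for genotype are not independent of the filter. Itgb2, the partner of Itgax and of the receptor 3 subunit Itgam, rose by 1.13 (adjusted p = 0.000401), and C4a as given above. The 4 C1 proteases lay between -0.43 and -0.26 with none called, none of 9 kept regulators on membranes was called, and of the terminal pathway 2 of 7 genes were kept, with C6, C8a, C8b, C9 and Hc too dim.

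**Figure D5:**
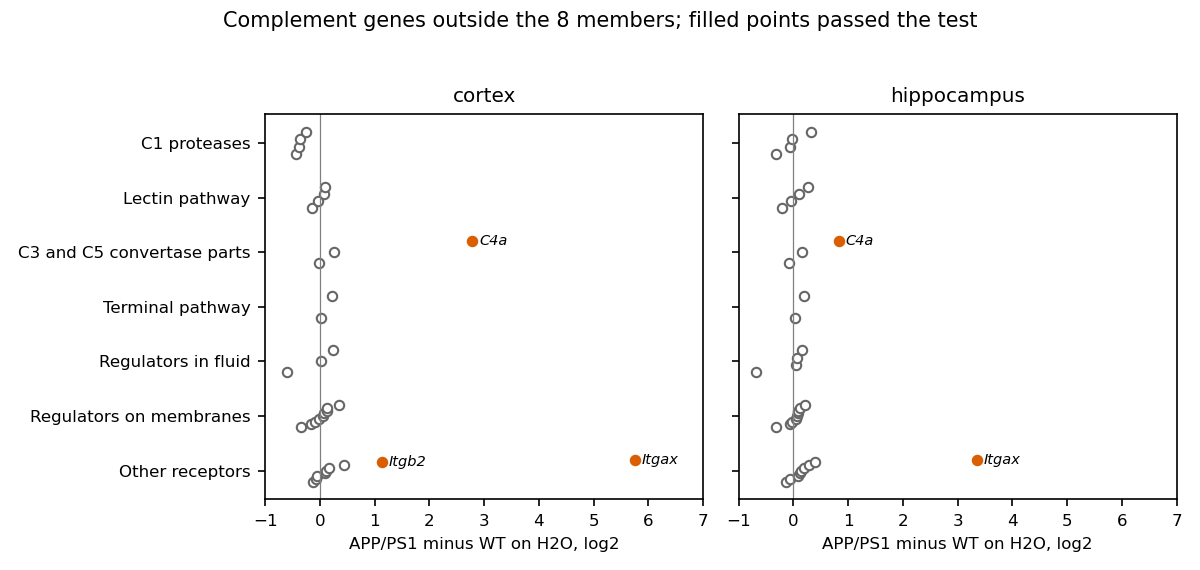
Difference in log2 level between APP/PS1 and WT mice on H2O (x axis) for kept complement genes outside the 8 members, by role (y axis), in cortex and hippocampus. Filled points passed the test, C4a, Itgax and Itgb2 for cortex and C4a and Itgax for hippocampus, and Itgax, mostly at background in WT mice, stands farthest out at 5.75 and 3.36.

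In the hippocampus on H2O, Itgax rose by 3.36 (adjusted p = 3.55e-06), with 1 of 6 WT arrays well above background, and C4a by 0.82 (adjusted p = 0.0493), 2 of 36 kept genes. Of all probes 0.393% were called in this comparison. On MSX-3, Itgax with 5.55, C4a with 2.88 and Itgb2 with 1.25 were again called in the cortex, where 1.42% of all probes were. Itgax alone was called in the hippocampus, with 3.69, where 0.312% of all probes were. Itgax was well above background on 1 of 5 and 1 of 6 WT MSX-3 arrays of these tissues, so that its sizes and its calls carry the limits given above. The genotype difference was larger in the cortex than in the hippocampus for C4a (1.96 on H2O and 2.12 on MSX-3) and, on H2O, for Itgax (2.39, adjusted p = 7.95e-05). None of these genes was called for MSX-3 or the interaction, where the largest differences were -0.39 for Cd59a in APP/PS1 and 0.63 for C7 in WT cortex, and 0.62 for Cpb2 in APP/PS1 hippocampus. The largest interactions were -0.56 for C7 in the cortex and 0.93 for Cpb2 in the hippocampus.

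Between the tissues of WT H2O mice, 6 of 35 other complement genes were higher in the cortex and 1 lower, where 14.3% of all probes were called. Higher were the proteases C1ra (1.64), C1s1 (1.14) and C1s2 (1.04), which act with C1q, and C2 (0.87), which C1s cuts. So were Masp1 (1.34), a protease of the lectin pathway, and Cd59b (1.47), an inhibitor of the terminal complex, while C4a was lower by 2.08. In APP/PS1 H2O mice the first 6 were again higher, C1ra by 1.07, C1s1 by 0.80, C1s2 by 0.72, C2 by 0.98, Masp1 by 0.93 and Cd59b by 1.04, and so were Itgax (1.89) and Itgb2 (0.59), where 13.7% of all probes were called. The remaining C1 protease gene of the list, C1rb, differed by 0.39 in WT (adjusted p = 0.27) and by 0.26 in APP/PS1 mice (adjusted p = 0.482).

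Genes with patterns most like those of the members were sought among 15833 genes over the 46 readable arrays, with Pearson's r after the mean of each tissue was subtracted, and again after the mean of each of the 8 groups. Arrays of 1 genotype share its difference in the first case, and all values share the scaling of the array in both. With tissue means subtracted, C1qa and C1qb were most like each other (r = 0.990), followed by Ctsz and Vav1 for both (0.968 to 0.983). C1qc came nearest to Tyrobp (0.986), Trem2 and Cd68 (0.985 each), C4b to Ctss, Gfap (0.974 each) and Slc14a1 (0.972), C3ar1 to Itgb2 (0.855), Phf11b and Irf8, and C5ar1 to Ccl12 (0.818), Msn and Cd48. Tyrobp and Trem2 form a receptor complex of microglia.

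With group means subtracted, which leaves differences among mice of 1 group, C1qa and C1qb were still most like each other (r = 0.95), each followed by the microglia marker Tmem119 (0.859 and 0.885) and then by Selplg for C1qa and Mmd2 for C1qb. C1qc was most like Fcgr2b (0.819) and Trem2, and C4b like Fgfrl1 (0.788), Selplg and C1qa (0.770). Serping1 was most like Col1a2 (0.882), a marker of meninges and fibroblasts, then Aldh1a2 and Slc6a13, and with tissue means subtracted like Col1a2, Slc6a13 and Serpinf1. The part of meningeal tissue in its level was not tested. The brighter C3 probe was most like Olfr570 (0.95), Il27 and 2410017I17Rik, or 4930506A18Rik in the third place with tissue means subtracted, and the dimmer one like 1110017D15Rik (0.807), Foxj1, a gene of ciliated cells, and Tmem98. The nearest genes of C3ar1 (3110082I17Rik, Olfr224, Gm32178) and C5ar1 (Car8, Acer3, Gm16845) reached only 0.657 and 0.647.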

How the data were processed

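Intensities were deposited by the authors as Agilent Feature Extraction (version 10.7.3.1) output, with background subtracted and without normalization between arrays, and the series matrix holds the same values. Of 62976 spots per array, 3671 controls were left out. Intensities were taken as log2, the 75th percentile of the array was subtracted as in the study's methods, with repeated spots averaged by probe. Within a tissue, probes well above background on at least 4 readable arrays of 1 group were kept, and probes kept in both tissues entered comparisons of tissues. The 75th percentile was 535.1 to 1083.5 on readable arrays and 2.77 and 4.18 on the 2 left out. For arrays, their number limits the precision, and the median residual SD was 0.21 to 0.26. RefSeq named 32989 probes. Treatment and tissue were taken from the labels.

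Groups were compared with limma 3.58.1 (lmFit, eBayes, R 4.3.3), on the arrays compared only, with Benjamini-Hochberg adjustment over all kept probes. The procedure was tested on simulated data. A gene is represented by its kept probe with the highest mean. Named are the 8 members, other complement genes that were called or had the largest difference where none was, the 3 genes most like each member, Prnp and Adora2a, and the results of some genes that fall under this rule are not reported here. Members and lists were chosen with earlier results of these data known. Alternatives were normexp with an offset of 50, quantile normalization, other percentiles, filters and fold minimums, array weights, slide or scan day as a term, all groups in a fit, the other probe, the mouse as a block, and leaving out each array. Chosen after seeing the data were the comparison of the tissues in APP/PS1 mice, leaving out arrays with a Ttr level over 5, the alternatives for other complement genes, and the likeness of second probes. The numbers of mice pair the tissues, since both come from 1 mouse: after removal of group means, the median correlation between tissues was 0.0773 over 22 mice (-0.427 to 0.503, 9 above 0.1). Adora2a, the target of the drug, differed by -0.27 (cortex) and -0.47 (hippocampus) in APP/PS1 mice on H2O, adjusted p = 0.713 and 0.716.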

Additional observations from a re-analysis of the deposited data

Results flagged for a closer look

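Single arrays stood apart from their group in 3 of 80 sets of a probe and a group, and chance gives about 1 in 20. C1qc was 2.73 on the cortex array of APP/PS1 H2O mouse 261, below the nearest array of its group at 3.05. C1qa was 2.30 on the hippocampus array of APP/PS1 MSX-3 mouse 293, above the nearest at 1.84. Serping1 was -2.82 on the cortex array of the same mouse, below the nearest at -1.83.

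The genotype difference was not the same in both tissues for 5 genes, by limma's test of the difference itself. On H2O it was larger in the cortex by 0.69 for C1qc, 2.24 for C4b, 1.96 for C4a and 2.39 for Itgax, and on MSX-3 by 0.94 for C1qa, 0.73 for C1qc, 2.51 for C4b and 2.12 for C4a. The call of Itgax is not independent of the filter on dim probes.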

How the results depend on the processing

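No difference of a member called in the main comparison changed its sign under an alternative, while some that were not called did. C3, for example, ran from -0.74 to 1.0 for genotype in the MSX-3 cortex, where the 1.0 was the value of its dimmer probe. C1qa ran from -0.28 to 0.68 for MSX-3 in the WT cortex and from -0.60 to 0.33 for the interaction in the cortex. The mouse as a block (consensus correlations -0.282 to 0.241) left the counts of members called between the tissues at 2 (genotype on H2O), 3 (genotype on MSX-3), 1 (WT) and 2 (APP/PS1). The order below is members, then other complement genes, where both are given. With the unreadable arrays kept, the counts were 1 and 1 (genotype, H2O cortex), 1 and 0 (MSX-3 cortex), 1 and 0 (genotype between tissues, on H2O and on MSX-3), and 3 other genes between the tissues of WT mice. With the slide as a term they were 3 and 2 (H2O cortex), 0 and 0 (H2O hippocampus), 0 members (MSX-3 hippocampus), 1 and 0 (between tissues, MSX-3) and 2 members (WT tissues). With the scan day they were 2 and 1 (H2O hippocampus) and 2 other genes (between tissues, MSX-3). With array weights 1 member, C3 by its brighter probe, and 2 other genes, C7 and Cpb2, were called for MSX-3 in the WT cortex. The dimmer C3 probe had a mean level of -4.20 there on MSX-3 and on H2O. Array weights also gave 1 member and 2 other genes in the comparisons between tissues on H2O and MSX-3, and 0 members between the tissues of APP/PS1 mice. For other genes in the H2O hippocampus the count was 1 with the percentile over kept probes, without the filter on dim probes, with probes well above background on every array, and with all 4 groups and the slide. The first of these gave 1 member between APP/PS1 tissues and the second 1 member for genotype between tissues on H2O. The strictest filter gave 0 other genes (MSX-3 hippocampus), 1 (between tissues, H2O), 4 (WT tissues) and 1 and 4 (APP/PS1 tissues). All groups with the slide gave 2 other genes (MSX-3 hippocampus), normexp and quantile normalization 2 (between tissues, MSX-3), and normexp 0 and 4 (APP/PS1 tissues). The other probe of C3 gave 2 members (WT tissues), and no minimum fold change 2 and 13 (WT tissues) and 4 and 16 (APP/PS1 tissues). C3ar1 lost its call in the H2O cortex, and C5ar1 in the MSX-3 cortex, with normexp and with all groups and the slide. C1qa lost its call in the MSX-3 hippocampus with normexp, array weights and no filter on dim probes. Without the arrays rich in Ttr, 1 and 1 were called (H2O hippocampus), and 1 member between tissues on each agent.

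Leaving out each array gave 5 to 6 members for genotype in the cortex on either agent, 4 to 5 and 2 to 3 in the hippocampus on H2O and MSX-3, 1 to 2 and 2 to 4 between tissues, 1 in WT and 1 to 2 in APP/PS1 tissues, and 0 for MSX-3. For other complement genes it gave 4, 3 to 4, 1 to 2, 1, 2 to 3, 1 to 2, 7 to 8, 7 to 9 and 0. The cause of these changes was not tested. Dim probes such as C5ar1 and C3ar1 limit what can be seen near background.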

Other observations

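Levels in the cortex and hippocampus of the same mouse were compared over 12 APP/PS1 and 10 WT mice with both arrays readable, for each member by its brighter probe, 16 relations in all. None passed after adjustment in a permutation test (two-sided). The strongest was Serping1 in WT mice, with r = -0.74 (permutation p = 0.0155, adjusted p = 0.248) and Spearman's rho = -0.67 (permutation p = 0.04, adjusted p = 0.565), and r = -0.53 without the 2 mice farthest from the median of its cortex level. In APP/PS1 mice the strongest was C3ar1, with r = 0.44 (permutation p = 0.147, adjusted p = 0.644), rho = 0.55 (permutation p = 0.0706, adjusted p = 0.565) and r = 0.56 without the 2 farthest mice. C4b gave r = 0.07 in APP/PS1 and 0.32 in WT mice (adjusted p = 0.843 and 0.728 in the permutation test). After the mean of each agent was subtracted, 0 relations passed.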
